A study of Mus musculus with 19 samples.

Results

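Skeletal muscle transcripts were followed in RNA of whole inguinal adipose tissue through 46 genes of the contractile apparatus, calcium handling and energy supply of muscle fibres. The members were chosen by name, as rows of the deposited expression table whose gene symbol stood in a fixed list, and all 46 were found among 24844 genes, each in 1 row. They comprised 11 thick filament genes, 10 thin filament genes, 8 genes of the Z-disc and the elastic filament, 8 calcium handling genes, 7 energy supply genes and 2 ubiquitin ligases. Within them, 15 genes are typical of fast fibres and 7 of slow fibres. All 46 had a value of at least 1 RPM, the unit of the table, in which reads are scaled to library size, in at least 4 of the 19 libraries and entered the tests.

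The mice were wild-type C57BL/6JRj animals kept at 29 °C, thermoneutrality for a mouse, and acclimatized for 14 days. In the 3 tumour groups, CHX207 fibrosarcoma cells were injected into the right gastrocnemius, a calf muscle, and tissue was taken 14 days later. The 4 healthy mice had no tumour and received control adeno-associated virus (AAV) and PBS. The tumour groups of 5 mice each received control AAV (tumour control), AAV carrying the hormone FGF21 (FGF21 AAV) or efruxifermin, an engineered FGF21 protein, at 2 mg/kg in 6 injections. Tumour mice were first treated 9 days ahead of the cell injection. The labels give no control AAV for the efruxifermin mice, no age or sex, and not the side from which the fat pad was taken. Each library carries its own number within its group, and the p-values measure the spread between these libraries.

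A muscle fibre shortens when myosin thick filaments pull on actin thin filaments, which titin and the Z-disc hold in register. Calcium released from the sarcoplasmic reticulum binds troponin C and frees the thin filament, and a calcium pump then returns it to the store. Fast and slow fibres use different genes for the same part, so that myosins, troponins and calsequestrins mark the fibre type. Most of these proteins are typical of striated muscle and not of adipocytes, although desmin, the tropomyosins and Fbxo32 are also made in other cells. Reads of Myl1, listed as a fast gene, also stood in libraries with few reads of other members, as given below. The inguinal fat pad lies against the muscles of the thigh and abdominal wall.

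Promoters of 4 members are shown because they stand for the genes on which the description turns: the leading fast myosin Myh4, the fast and slow troponin C genes Tnnc2 and Tnnc1, and the creatine kinase Ckm. Each window runs from 250 bases before to 50 bases after the annotated start, 5′ to 3′ on the gene's strand, from RefSeq on build GRCm38.p6. Myh4 lies at chr11:67237562-67237861 on the plus strand, Tnnc2 at chr2:164779685-164779984 on the minus strand, Tnnc1 at chr14:31208062-31208361 on the plus strand and Ckm at chr7:19410844-19411143 on the plus strand. Capitals mark E-boxes (CANNTG, the motif read by MyoD family factors), the MEF2 motif and the CArG box of serum response factor, each searched on both strands, and TATAAA on the gene's strand. TATAAA can overlap the MEF2 motif.
Myh4: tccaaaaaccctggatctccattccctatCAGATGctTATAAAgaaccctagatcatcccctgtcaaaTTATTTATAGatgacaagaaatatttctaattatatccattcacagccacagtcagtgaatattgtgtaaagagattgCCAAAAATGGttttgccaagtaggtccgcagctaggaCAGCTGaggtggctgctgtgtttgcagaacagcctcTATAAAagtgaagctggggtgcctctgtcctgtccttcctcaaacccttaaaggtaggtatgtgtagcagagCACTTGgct
Tnnc2: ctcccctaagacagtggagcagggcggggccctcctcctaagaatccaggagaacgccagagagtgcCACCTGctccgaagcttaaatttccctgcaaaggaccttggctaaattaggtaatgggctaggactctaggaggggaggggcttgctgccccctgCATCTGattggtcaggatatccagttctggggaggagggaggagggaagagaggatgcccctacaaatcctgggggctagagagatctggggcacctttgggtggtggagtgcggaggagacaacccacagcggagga
Tnnc1: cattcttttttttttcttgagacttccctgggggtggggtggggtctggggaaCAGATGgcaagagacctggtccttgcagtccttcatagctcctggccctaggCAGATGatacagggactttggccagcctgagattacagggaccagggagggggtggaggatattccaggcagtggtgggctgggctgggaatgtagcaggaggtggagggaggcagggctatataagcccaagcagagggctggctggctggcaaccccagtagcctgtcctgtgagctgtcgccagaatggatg
Ckm: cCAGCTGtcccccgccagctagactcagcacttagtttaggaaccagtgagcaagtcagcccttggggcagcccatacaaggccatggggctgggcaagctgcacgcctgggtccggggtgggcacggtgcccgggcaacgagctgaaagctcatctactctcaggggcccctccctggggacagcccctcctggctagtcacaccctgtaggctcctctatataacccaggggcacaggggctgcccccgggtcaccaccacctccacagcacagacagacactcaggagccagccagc
The Myh4 window held 3 E-boxes, 1 MEF2 motif, 1 CArG box and 2 TATAAA matches. The Tnnc2 and Tnnc1 windows held 2 E-boxes each and the Ckm window 1, with none of the other motifs. Windows were at hand for 34 of the 46 members and for 27025 genes in all. An E-box stood in 85.3% of the members' windows and in 72.1% of all windows, and its form CAGCTG in 52.9% and 16.1%. The MEF2 motif stood in 17.6% of the members' windows against 3.26% of all, the CArG box in 11.8% against 1.57%, and TATAAA in 17.6% against 8.88%. These matches describe letters in the windows and carry no measurement from the libraries.

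The libraries held 2011067 to 3693864 reads and 12537 to 17040 detected genes. Efruxifermin 3 stood apart with the fewest genes and with 17.3% of its reads in Gm42418, a transcript that overlaps ribosomal RNA, against 1.93% to 15.4% elsewhere. All 10 adipocyte markers had reads in every library. Their summed level was 14656 to 41108 RPM in healthy libraries and 1934 to 14261 RPM in tumour controls. With FGF21 AAV it was 18387 to 47699 RPM, and with efruxifermin 5966 to 43915 RPM. B cell markers, which mark lymph node tissue, were summed over 8 genes and reached 1.41 to 1461, 4.60 to 3320, 3.43 to 976 and 14.0 to 1108 RPM in the same order.

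The 46 muscle genes took up very different shares of the reads from mouse to mouse. They made up 7.08%, 0.109%, 2.13% and 1.48% of reads in healthy libraries 1 to 4, and 0.266%, 0.0361%, 0.0533%, 17.0% and 0.119% in tumour controls 1 to 5. Under FGF21 AAV, libraries 1 to 5 held 0.0477%, 0.0363%, 0.128%, 0.462% and 0.0469%, and under efruxifermin 0.932%, 0.0351%, 5.64%, 0.111% and 0.164%. Tumour control 4, healthy 1 and efruxifermin 3 were the highest, and the highest share was 483 times the lowest. Of the members' reads over all 19 libraries, 85.1% came from these 3. In all, 5 libraries exceeded 1% and 6 stayed below 0.1%, and the ranges of the 4 groups overlapped.

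The group means followed those few libraries. Healthy libraries averaged 2.70% ± 3.04 (SD, n = 4) and tumour controls 3.49% ± 7.54 (SD, n = 5). FGF21 AAV libraries averaged 0.144% ± 0.181 and efruxifermin libraries 1.38% ± 2.41 (both SD, n = 5). Without tumour control 4, the tumour control mean was 0.119% ± 0.105 (SD, n = 4). Without efruxifermin 3, the efruxifermin mean was 0.311% ± 0.418 (SD, n = 4), and without healthy 1 the healthy mean was 1.24% ± 1.03 (SD, n = 3). The FGF21 AAV mean was 0.0649% ± 0.0427 without library 4 (SD, n = 4).

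**Figure D1:**
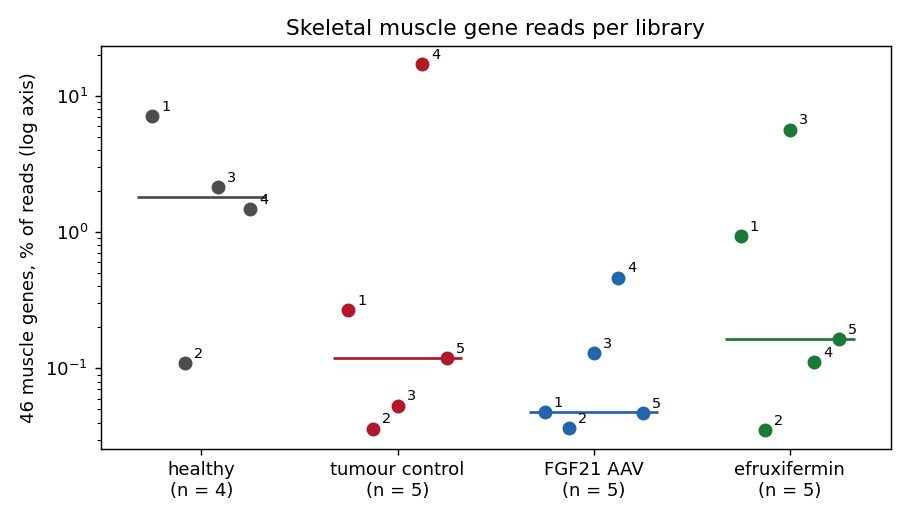
Share of reads in the 46 muscle genes, as a percentage on a log axis, with 1 point for each library, its number beside it, and the group median as a line. The points run from 0.0351% to 17.0%, and every group spans a wide range.

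Markers of other tissues were read beside the muscle genes. Adipocyte markers summed to 7184 RPM in tumour control 4, the median of the tumour controls, and to 5966 RPM in efruxifermin 3, the lowest of the efruxifermin libraries. Of the 8 B cell markers, 7 had 0 reads in healthy 1, healthy 4, tumour control 4, FGF21 AAV 4 and efruxifermin 3, all of which had more than 0.4% of reads in the muscle genes. In FGF21 AAV 2, with 0.0363% of reads in the muscle genes, 6 of the 8 had 0 reads, and in efruxifermin 1, with 0.932%, 1 of the 8 had. Healthy 3 had both, with 2.13% of reads in the muscle genes and 1461 RPM of B cell markers. The part of these tissue markers in the results on muscle genes was not tested. In whole tissue, fewer fibres and less RNA per fibre cannot be told apart.

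Skeletal actin Acta1, the main thin filament protein, had the highest mean of the members. It stood at 12874, 136, 3396 and 2609 RPM in healthy libraries 1 to 4 and at 355, 0.378, 15.1, 25648 and 158 RPM in tumour controls 1 to 5, and this order of libraries is kept for all lists of values. Under FGF21 AAV the Acta1 values were 3.23, 11.9, 97.5, 548 and 0.953 RPM, and under efruxifermin 855, 3.31, 7784, 131 and 213 RPM. All 4 groups overlapped, and 4 tumour libraries held 3.31 RPM or less while tumour control 4 held the most. The healthy mean was 4754 ± 5589 RPM (SD, n = 4) and the tumour control mean 5235 ± 11412 RPM (SD, n = 5).

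Troponin C binds the calcium that starts contraction. The fast gene Tnnc2 stood at 4265, 19.7, 1456 and 835 RPM in healthy mice and at 143, 0, 4.56, 9559.6 and 25.7 RPM in tumour controls. It stood at 0, 0.994, 77.2, 217 and 0 RPM under FGF21 AAV and at 455, 0, 3768, 19.0 and 38.1 RPM under efruxifermin. The slow and cardiac gene Tnnc1 was at 163, 0, 28.1 and 4.03 RPM in healthy mice, at 0, 1.51, 0, 19.8 and 0 RPM in tumour controls and at 0, 14.9, 0, 2.18 and 0 RPM under FGF21 AAV, and had 0 reads in all 5 efruxifermin libraries. Tnnc2 therefore followed the overall muscle share, whereas Tnnc1 had no reads in efruxifermin 3 beside 3768 RPM of Tnnc2. Tnnc1 also stood at 14.9 RPM in FGF21 AAV 2, where Tnnc2 stood at 0.994 RPM.

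Troponin T anchors the troponin complex on tropomyosin. Fast Tnnt3 measured 2857, 29.7, 1044 and 647 RPM in healthy mice, 115, 3.78, 9.82, 6941 and 76.4 RPM in tumour controls, 0.359, 0.497, 54.4, 191 and 0 RPM under FGF21 AAV and 439.8, 3.97, 2485, 15.8 and 84.5 RPM under efruxifermin. Slow Tnnt1 measured 299, 0.742, 70.9 and 0.366 RPM in healthy mice, 0.475, 0.378, 0.702, 43.3 and 2.73 RPM in tumour controls, 0, 3.48, 0, 12.8 and 0 RPM under FGF21 AAV and 0.626, 0, 0, 0 and 0 RPM under efruxifermin. Healthy 4 had 647 RPM of Tnnt3 and 0.366 RPM of Tnnt1, while healthy 1 and healthy 3 held both. Troponin I, the inhibitory subunit, showed the same split, with fast Tnni2 at up to 6813 RPM and slow Tnni1 at up to 86.5 RPM. Tnni1 had the lowest mean of the thin filament genes and had reads in 5 of the 19 libraries.

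The tropomyosins block the myosin sites on actin at rest and are also made outside muscle. Tpm1 stood at 4426, 209, 1498 and 1078 RPM in healthy mice and at 272, 133, 151, 11868 and 165 RPM in tumour controls. Under FGF21 AAV it stood at 166, 219, 187, 467 and 254 RPM and under efruxifermin at 803, 166, 4682, 200.0 and 210.0 RPM. Tpm1 stayed at 133 RPM or more, even in libraries with almost no Acta1. Tpm2 measured 2509.7, 98.7, 654 and 478 RPM in healthy mice, 102, 22.3, 44.6, 4209 and 47.2 RPM in tumour controls, 57.9, 24.4, 53.5, 162 and 36.2 RPM under FGF21 AAV and 285, 33.7, 1275, 48.1 and 78.1 RPM under efruxifermin. In the 6 libraries with the lowest Acta1, Tpm1 lay at 133 to 254 RPM and Tpm2 at 22.3 to 57.9 RPM. Nebulin (Neb), the giant protein along the thin filament, ranged from 0 to 5584 RPM.

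Those 6 libraries, namely tumour controls 2 and 3, FGF21 AAV 1, 2 and 5 and efruxifermin 2, show which members are read with little muscle RNA present. In them, 9 members had reads in every library, and they were the only members with reads in all 19. They were Acta1, Tpm1, Tpm2, Myl1, Ttn, Des, Eno3, Pygm and Fbxo32. At the other end, Myh2, Tnni1, Actn3, Casq2, Sln and Ckmt2 had 0 reads in all 6. The level in the library where each gene was highest, divided by the median of the 6, was 23.4 for Fbxo32, 68.5 for Des and 71.5 for Tpm1.

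Among the motor proteins of the thick filament, Myh4 encodes the myosin of the fastest fibres. It stood at 5437, 10.8, 2095 and 1356 RPM in healthy mice and at 264, 0, 8.77, 24031 and 108 RPM in tumour controls. Under FGF21 AAV its values were 2.16, 0, 114, 461 and 0 RPM and under efruxifermin 1358, 0, 8526, 100.3 and 92.3 RPM. The groups overlapped, and each group held a library with 10.8 RPM or less beside 1 with 461 RPM or more.

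Myh1 and Myh2, the myosins of the other fast fibres, had a different order of libraries. Myh1 stood at 990.1, 28.2, 229 and 149 RPM in healthy mice, at 9.02, 0, 1.05, 674 and 14.4 RPM in tumour controls, at 0, 0, 1.98, 44.6 and 0 RPM under FGF21 AAV and at 0, 0, 0.351, 0 and 33.3 RPM under efruxifermin. Myh2 stood at 617, 4.08, 133 and 57.9 RPM in healthy mice, at 7.12, 0, 0, 252 and 0 RPM in tumour controls, at 0, 0, 0.495, 29.3 and 0 RPM under FGF21 AAV and at 0, 0, 0, 9.49 and 1.12 RPM under efruxifermin. Both were highest in healthy 1, which held less Myh4 than tumour control 4. The slow myosin Myh7 measured 194, 1.86, 41.0 and 2.56 RPM in healthy mice, 0, 0, 0, 36.0 and 0 RPM in tumour controls and 0, 0, 0, 4.05 and 2.22 RPM under FGF21 AAV. It had 0 reads in all efruxifermin libraries, which lay below all 4 healthy libraries.

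As shares of the reads of these 4 myosins, 13 libraries with 100 or more such reads could be described. Shares of reads are not shares of fibres, since the reads come from transcript ends and are not calibrated between genes. Myh4 made up 75.1%, 24.0%, 83.9% and 86.6% in healthy libraries 1 to 4, and 94.2%, 96.2% and 88.2% in tumour controls 1, 4 and 5. It made up 97.9% and 85.5% in FGF21 AAV 3 and 4. Healthy 2 was the only one of the 13 in which another myosin led: Myh1 took 62.8% of its 121 myosin reads (95% exact interval 53.6 to 71.4).

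The efruxifermin libraries differed among themselves. Efruxifermin 1 had 4342 myosin reads, all of Myh4, and efruxifermin 3 had 24305 of Myh4, 1 of Myh1 and 0 of Myh2 and Myh7. For Myh2 in efruxifermin 3 the exact interval runs up to 0.0152%. In efruxifermin 5, by contrast, Myh1 took 26.3% (21.6 to 31.3), and in efruxifermin 4 Myh2 took 8.65% (5.91 to 12.1). Tumour control 4, with 92320 myosin reads, had 2.70% of Myh1, 1.01% of Myh2 and 0.144% of Myh7. All intervals and floors given here cover counting error only, because without molecular identifiers PCR copies of 1 molecule count as several reads.

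**Figure D2:**
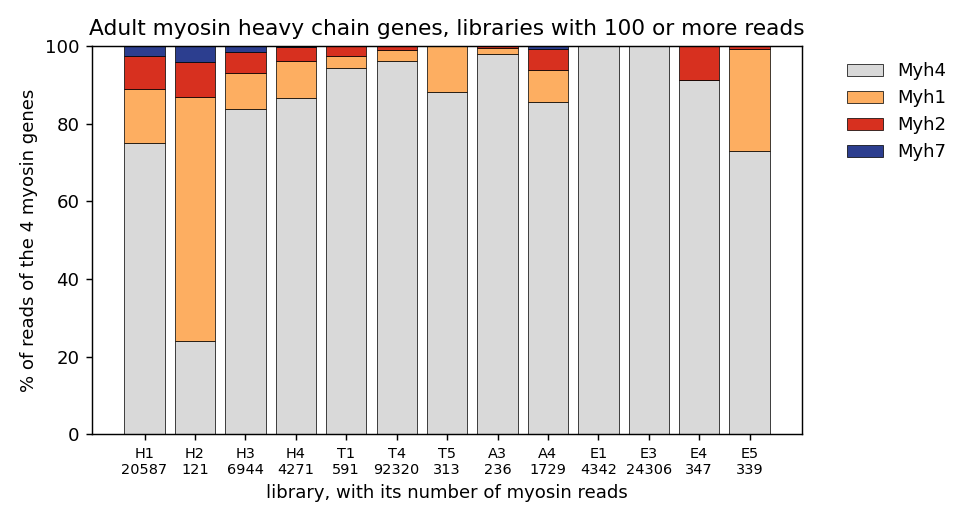
Make-up of the reads of the 4 adult myosin heavy chain genes in 13 libraries, as stacked percentages, with the number of myosin reads under each library (H healthy, T tumour control, A FGF21 AAV, E efruxifermin). Myh4 leads in all but healthy 2, and efruxifermin 1 and 3 hold almost nothing else.

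The 3 fast myosin genes lie side by side and resemble each other near their ends. Over the last 500 bases of the transcripts, Myh4 shared 81.6% identity with Myh1 and 72.9% with Myh2, and Myh1 shared 75.7% with Myh2. Of the 50-base windows in that stretch, 7.54% of those of Myh4 were found unchanged in Myh1 and 16.0% of those of Myh1 in Myh2, while Myh4 and Myh7 shared none. Reads from shared stretches could be lost or counted for another gene, and the extent of this was not tested. In efruxifermin 3, 24305 reads of Myh4 stood beside 1 of Myh1 and 0 of Myh2. Whether counting used the strand is not given in the sources used here. For the pairs Tnnc1 and Tnnc2, Tnni1 and Tnni2, Tnnt1 and Tnnt3, Myl2 and Mylpf and Casq1 and Casq2, no such window was shared.

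The light chains steady and tune the myosin head. The fast regulatory chain Mylpf stood at 2174, 24.9, 534 and 535 RPM in healthy mice, 58.4, 6.43, 3.51, 4953 and 23.0 RPM in tumour controls, 5.03, 2.49, 8.91, 92.5 and 1.27 RPM under FGF21 AAV and 249, 0, 1049.9, 11.1 and 23.9 RPM under efruxifermin. Its slow counterpart Myl2 stood at 269, 0, 41.0 and 0.733 RPM in healthy mice, 0, 0.378, 0, 46.6 and 0 RPM in tumour controls and 0, 0, 2.48, 5.92 and 0 RPM under FGF21 AAV, with 0 reads in all efruxifermin libraries. Healthy 4 had 535 RPM of Mylpf but 0.733 RPM of Myl2, whereas healthy 3, with a like Mylpf level, had 41.0 RPM of Myl2. The slow essential chain Myl3 ranged from 0 to 328 RPM and the fast one, Myl1, from 8.70 to 3333 RPM. Myl1 remained readable everywhere, at 8.70 to 83.9 RPM in the 6 libraries of lowest Acta1. It gave 264 of the 268 fast gene reads in FGF21 AAV 5 and 123 of the 147 in efruxifermin 2. Myl1 was kept among the fast genes, and the measures of fast against slow genes below were not recomputed without it. Mybpc2 and Mybpc1, the fast and slow forms of myosin binding protein C, reached 2263 and 324 RPM, and the light chain kinase Mylk2 reached 564 RPM.

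**Figure D3:**
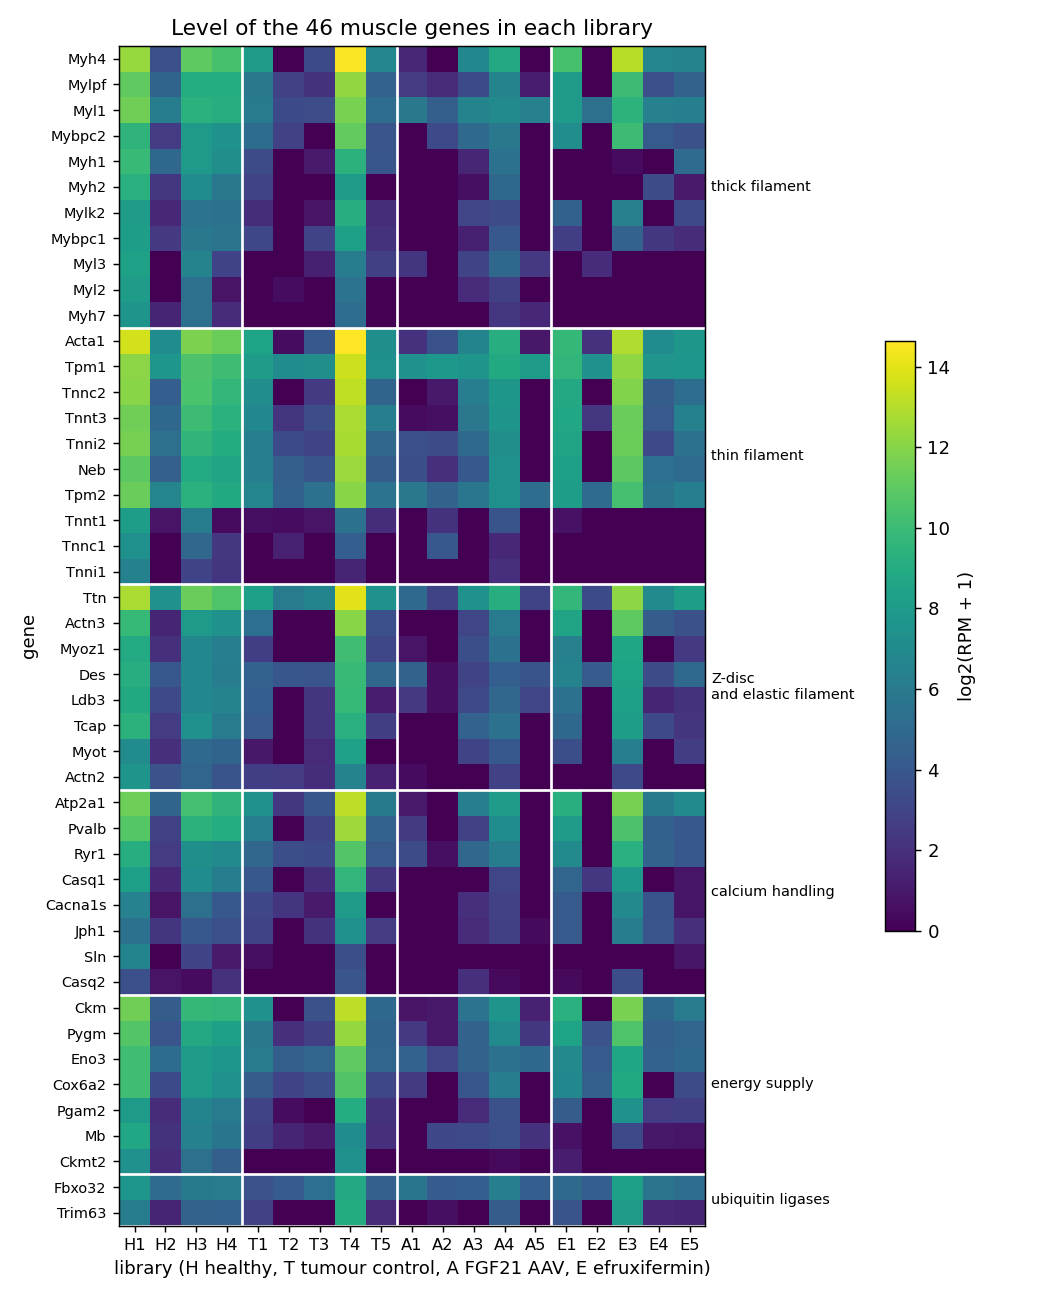
Level of each of the 46 genes (rows, grouped by role and sorted by mean) in each of the 19 libraries (columns), as log2(RPM + 1) in colour, with white lines between roles and groups. Tumour control 4, healthy 1 and efruxifermin 3 form the bright columns, and Tpm1, Myl1 and Fbxo32 stay above 0 in every column.

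Titin (Ttn), the elastic filament that spans from Z-disc to the centre of the sarcomere, led its group. It measured 7038, 172, 2509.9 and 1549 RPM in healthy mice, 311, 60.9, 97.2, 16327 and 176 RPM in tumour controls, 31.6, 6.96, 179.7, 559 and 6.99 RPM under FGF21 AAV and 827, 8.93, 4552, 121 and 295 RPM under efruxifermin. Desmin (Des), an intermediate filament of both striated and smooth muscle, measured 563, 14.5, 112 and 71.1 RPM in healthy mice, 23.7, 14.0, 13.7, 949 and 27.3 RPM in tumour controls, 24.4, 0.497, 6.93, 19.6 and 13.0 RPM under FGF21 AAV and 94.5, 17.5, 357, 9.18 and 30.6 RPM under efruxifermin. Both were read in every library, and tumour control 4 was highest for both. The fast fibre actinin Actn3 reached 4160 RPM, also in tumour control 4, and had 0 reads in all 6 libraries of lowest Acta1.

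Actn2, the actinin shared by fast fibres, slow fibres and the heart, had the lowest mean of the Z-disc genes. Its values were 191, 12.6, 26.3 and 13.2 RPM in healthy mice, 5.70, 4.92, 2.81, 94.2 and 1.56 RPM in tumour controls, 0.359, 0, 0, 6.54 and 0 RPM under FGF21 AAV and 0, 0, 8.42, 0 and 0 RPM under efruxifermin. Every healthy library lay above every library of either treated group, and healthy and tumour control libraries overlapped. In efruxifermin 1, Actn2 had 0 reads beside 376 RPM of Actn3. The remaining Z-disc genes Myoz1, Myot, Ldb3 and Tcap, which bind actinin, filamin or titin at the Z-disc, peaked at 1136, 335, 914 and 669 RPM.

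For calcium handling, the pump of fast fibres, Atp2a1, led. It stood at 2752, 25.2, 1213 and 739.8 RPM in healthy mice, 179, 4.16, 14.0, 9353 and 59.3 RPM in tumour controls, 1.08, 0, 75.7, 277 and 0 RPM under FGF21 AAV and 583, 0, 3253, 60.1 and 126 RPM under efruxifermin. Parvalbumin (Pvalb), the soluble calcium buffer of fast fibres, stood at 1752, 6.31, 672 and 546 RPM in healthy mice, 78.3, 0, 6.67, 5773 and 23.4 RPM in tumour controls, 4.67, 0, 6.43, 136 and 0 RPM under FGF21 AAV and 275, 0, 1496, 22.2 and 15.3 RPM under efruxifermin. Atp2a1 and Pvalb were both highest in the same 3 libraries, tumour control 4, healthy 1 and efruxifermin 3, and the groups overlapped for both.

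Calsequestrins hold calcium inside the store. Casq1, the fast form, stood at 303, 2.23, 139.6 and 69.3 RPM in healthy mice, 14.7, 0, 2.81, 799 and 3.90 RPM in tumour controls, 0, 0, 0, 7.48 and 0 RPM under FGF21 AAV and 26.3, 3.97, 226, 0 and 0.747 RPM under efruxifermin. Casq2, the slow and cardiac form, had the lowest mean of the calcium genes and of all 46. It reached 13.3 RPM in tumour control 4, 10.9 RPM in healthy 1 and 10.5 RPM in efruxifermin 3. Unlike the other slow genes it was therefore nearly as high in efruxifermin 3 as in healthy 1.

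Sarcolipin (Sln), a small inhibitor of the calcium pump, measured 98.4, 0, 6.83 and 1.10 RPM in healthy mice and 0.475, 0, 0, 10.3 and 0 RPM in tumour controls, 0 in all 5 FGF21 AAV libraries and 0, 0, 0, 0 and 0.747 RPM under efruxifermin. Healthy 1 thus held most of the Sln, and tumour control 4, with 9353 RPM of Atp2a1 against 2752 RPM in healthy 1, held 10.3 RPM of Sln against 98.4 RPM. The release channel Ryr1 reached 1705 RPM, its voltage sensor Cacna1s 262 RPM and the membrane tether Jph1 164 RPM, each in tumour control 4.

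The creatine kinase Ckm, which regenerates ATP from phosphocreatine, followed Acta1. Its values were 2841, 18.9, 874 and 786 RPM in healthy mice, 171, 0, 11.2, 9259.7 and 28.5 RPM in tumour controls, 0.719, 0.994, 46.5, 192 and 1.59 RPM under FGF21 AAV and 639, 0, 3355, 28.8 and 63.2 RPM under efruxifermin. Myoglobin (Mb), the oxygen store of oxidative fibres, stood at 441, 3.34, 84.5 and 51.7 RPM in healthy mice, 5.70, 1.89, 1.05, 136 and 3.12 RPM in tumour controls, 0, 7.96, 8.41, 10.9 and 3.49 RPM under FGF21 AAV and 0.626, 0, 8.42, 0.949 and 0.747 RPM under efruxifermin. Mb was highest in healthy 1 and Ckm in tumour control 4. The glycolytic enzymes Pygm, Eno3 and Pgam2 and the muscle form of a cytochrome oxidase subunit, Cox6a2, peaked at 5085, 2129, 531 and 1600 RPM, all in tumour control 4.

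Ckmt2, the creatine kinase of muscle mitochondria, had the lowest mean of the energy genes. It stood at 168, 2.60, 40.6 and 20.9 RPM in healthy mice and at 0, 0, 0, 166 and 0 RPM in tumour controls. Under FGF21 AAV its values were 0, 0, 0, 0.312 and 0 RPM and under efruxifermin 1.25, 0, 0, 0 and 0 RPM. Each healthy library lay above all libraries of both treated groups, and tumour control 4 was the only tumour library above 2 RPM.

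The 2 ubiquitin ligases mark fibre proteins for breakdown and are known from muscle wasting. Trim63 stood at 73.5, 1.86, 24.5 and 23.5 RPM in healthy mice, 6.17, 0, 0, 516 and 2.34 RPM in tumour controls, 0, 0.497, 0, 18.7 and 0 RPM under FGF21 AAV and 13.1, 0, 228, 2.21 and 1.87 RPM under efruxifermin. Fbxo32 stood at 203, 33.4, 60.8 and 61.2 RPM in healthy mice, 12.3, 17.4, 39.3, 459 and 21.8 RPM in tumour controls, 50.7, 17.9, 19.8, 76.0 and 19.7 RPM under FGF21 AAV and 31.9, 19.5, 307, 48.1 and 37.4 RPM under efruxifermin. Trim63 was highest in the 3 libraries richest in muscle reads, while Fbxo32 kept 12.3 RPM or more in every library. The 6 libraries of lowest Acta1 held 17.4 to 50.7 RPM of Fbxo32.

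Fast and slow genes were set against each other within each library. Of 46 members, 33 were highest in tumour control 4 and 13 in healthy 1. The former included 13 of the 15 fast genes and 1 of the 7 slow genes, Casq2, and the latter 2 fast genes, Myh1 and Myh2, and 6 slow genes. In the 12 libraries with 1000 or more reads of fast and slow genes together, slow genes took 0 to 4.37% of these reads. The other 7 libraries had 107 to 753 such reads and slow shares of 1.20% to 30.3%, the latter in FGF21 AAV 2 from 37 slow reads, and were left out of the comparison for their few reads.

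In healthy mice the slow share was 4.37% in library 1 (95% exact interval 4.23 to 4.50), 2.85% in library 3 (2.66 to 3.05) and 0.327% in library 4 (0.248 to 0.422). In tumour controls it was 0.0435% in library 1 (0.00110 to 0.242), 0.284% in library 4 (0.266 to 0.304) and 1.95% in library 5 (1.22 to 2.93). FGF21 AAV 3 and 4 had 2.33% (1.51 to 3.41) and 2.90% (2.50 to 3.35). Under efruxifermin it was 0.0203% in library 1, 0.0380% in library 3 (0.0256 to 0.0542), and 0 in libraries 4 and 5, with upper bounds of 0.321% and 0.240%. All 4 of these efruxifermin libraries thus lay below the healthy libraries and both FGF21 AAV libraries by this share. Tumour control 1 came next above them, with 1 slow read and an interval that overlapped those of all 4. Efruxifermin 2, left out with 155 reads of fast and slow genes, had a share of 5.16% (2.25 to 9.92), above that of each healthy library. The interval of efruxifermin 4 still overlapped that of healthy 4. The libraries kept for their number of reads numbered 4 of 5 with efruxifermin, 2 of 5 with FGF21 AAV, 3 of 5 among tumour controls and 3 of 4 among healthy mice, and no test was made.

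The order changed by another measure, the mean log2(RPM + 1) of the slow genes minus that of the fast genes. It gives every gene equal weight, but where slow genes have 0 reads it depends only on the level of the fast genes. In the same 12 libraries this difference of means was -3.31, -4.09 and -6.28 in healthy 1, 3 and 4, and -5.23, -6.91 and -3.44 in tumour controls 1, 4 and 5. It was -3.02 and -3.74 in FGF21 AAV 3 and 4, and -6.59, -8.40, -3.37 and -4.37 in efruxifermin 1, 3, 4 and 5. Efruxifermin 3 was again the lowest of all, but efruxifermin 4 lay above healthy 3, healthy 4 and FGF21 AAV 4, and efruxifermin 5 above healthy 4. The efruxifermin libraries thus separated by the share of reads and not by this measure. Efruxifermin 4 and 5 had 0 slow reads, so their differences were the lowest possible for their fast genes. Those fast genes summed to 363 and 573 RPM, against 9552 and 6487 RPM in healthy 3 and 4. At such unlike levels the measure cannot show whether the separation holds.

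Libraries of like muscle content could still differ in their fibre genes. Healthy 1 and efruxifermin 3 had 84124 and 78978 reads of fast genes, but 3840 and 30 of slow genes. All 30 slow reads of efruxifermin 3 were of Casq2, and the other 6 slow genes had 0 reads there. Healthy 4 and efruxifermin 1 had 17704 and 14750 fast reads and 58 and 3 slow reads. In FGF21 AAV 4, 6123 fast reads stood beside 183 slow ones.

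Ratios to Ckm within a library were chosen after the values were seen and are given as a description, for the 13 libraries with 50 or more Ckm reads. Per 100 reads of Ckm, healthy libraries 1 to 4 held 5.90, 13.7, 4.65 and 2.66 reads of Ckmt2. Tumour control 4 held 1.79 (95% exact interval 1.65 to 1.94), FGF21 AAV 4 held 0.162 and efruxifermin 1 held 0.196, and the other 6 tumour libraries held 0. All 4 healthy libraries lay above all 9 tumour libraries, but the upper bounds of tumour control 5, FGF21 AAV 3 and efruxifermin 4 reached 5.18, 4.00 and 4.14. In efruxifermin 3, with 9564 Ckm reads, the upper bound was 0.0386.

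Myoglobin per 100 Ckm reads was 15.5, 17.6, 9.67 and 6.57 in healthy libraries 1 to 4. It was 1.47 in tumour control 4, 5.67 in FGF21 AAV 4, 0.0979 in efruxifermin 1 and 0.251 in efruxifermin 3. FGF21 AAV 3 and tumour control 5, with 94 and 73 Ckm reads, had 18.1 and 11.0, so the tumour libraries did not all lie below the healthy ones. Trim63 per 100 Ckm reads was 2.59, 2.80 and 2.98 in healthy 1, 3 and 4. It was 5.58 in tumour control 4 (5.32 to 5.84), 9.72 in FGF21 AAV 4 (7.33 to 12.7) and 6.80 in efruxifermin 3 (6.27 to 7.36), but 2.06 in efruxifermin 1 (1.48 to 2.79). Tumour control 1, efruxifermin 5 and FGF21 AAV 3 had 3.60 (1.90 to 6.24), 2.96 (0.948 to 7.04) and 0 (up to 4.00). Tumour control 5 and efruxifermin 4 had 8.22 (2.92 to 18.8) and 7.69 (3.01 to 16.5). Healthy 2, with 51 Ckm reads, had 9.80 (3.05 to 24.4), so that the ranges of healthy and tumour libraries overlapped.

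**Figure D4:**
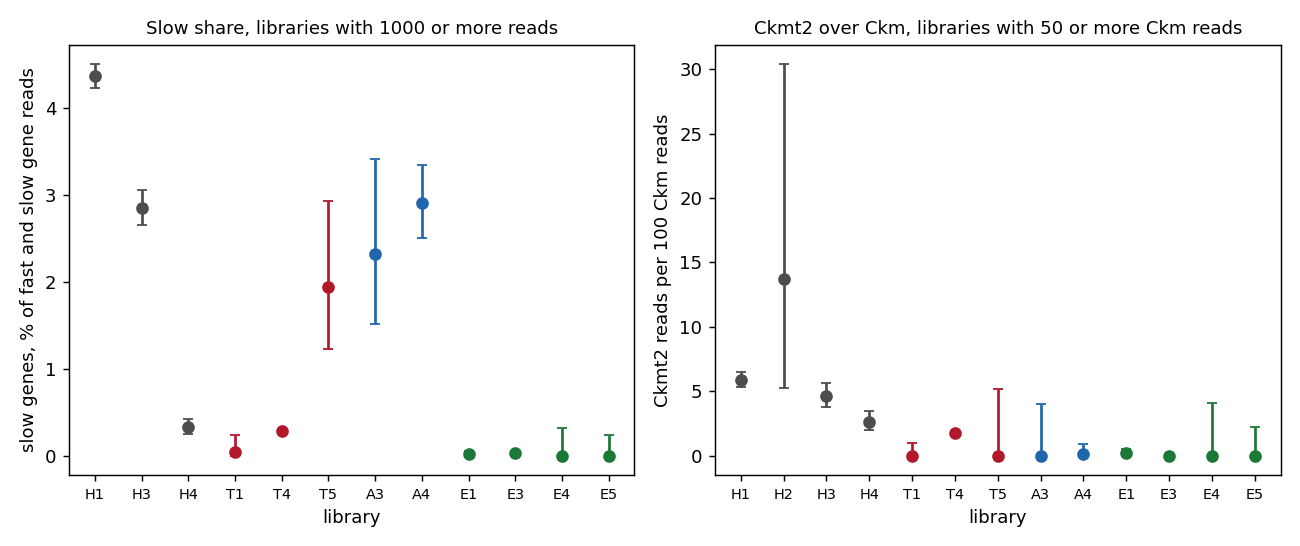
Left, slow gene reads as a percentage of fast and slow gene reads in the 12 libraries with 1000 or more of them; right, Ckmt2 reads per 100 Ckm reads in the 13 libraries with 50 or more Ckm reads (H healthy, T tumour control, A FGF21 AAV, E efruxifermin). Bars are 95% exact intervals for counting error; the efruxifermin libraries lie at or near 0 on both panels, with wide bars on the right where Ckm reads are few.

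Other skeletal muscle genes had the same 3 libraries at the top. The 34 further skeletal muscle genes, led by triadin (Trdn) and Xirp2, summed to 14051 RPM in tumour control 4, 6825 in healthy 1 and 4478 in efruxifermin 3, against 47.0 to 1895 RPM in the other 16 libraries. All 34 had reads in healthy 1, tumour control 4 and efruxifermin 3, and 27 had 0 reads in FGF21 AAV 2 and in efruxifermin 2. Of the 5 slow fibre genes outside the members, Tpm3 and Atp2a2, which other cells also use, were read in every library and their list did not follow the members, with a sum of 260 RPM in tumour control 4 and 488 RPM in tumour control 2. Another of them, Myoz2, was at 112 RPM in healthy 1, 16.6 in healthy 3, 6.23 in tumour control 4 and 1.47 in healthy 4, and at 0 in the other 15.

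Reads of developmental myosins and of muscle precursor and regulator genes were few. Embryonic and neonatal myosins Myh3 and Myh8 stayed at or below 3.52 RPM each. Of 5 genes of muscle precursors and regulators in the table, Myf6 and Myod1 reached 38.2 and 26.3 RPM in tumour control 4. The sum of the 5 was 74.7 RPM there, 43.2 RPM in healthy 1 and 38.2 RPM in efruxifermin 3, and 0 in 11 libraries. Neuromuscular junction genes, led by Chrnb1 and Colq, summed to 1.66 to 47.0 RPM, highest in tumour control 1. The 15 atrophy genes, led by the metallothioneins Mt1 and Mt2, summed to 828 to 2718 RPM, with efruxifermin 1 highest, and these genes are also made by other cells.

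Heart and smooth muscle genes gave another order of libraries. Of the heart genes, 4 were in the table, led by Tnnt2 and Tnni3, and summed to 5.29 to 37.1 RPM. The 8 smooth muscle genes, led by Acta2 and Myh11, summed to 369 to 841 RPM in healthy mice and 91.9 to 312 RPM in tumour controls. With FGF21 AAV the sum was 345 to 522 RPM and with efruxifermin 357 to 472 RPM. Acta2, vascular smooth muscle actin, was lower in tumour controls than in healthy mice by limma on log2(RPM + 1), with a difference of -1.98 and an adjusted p of 0.00678. The 7 thermogenic genes, led by Cox8b and Cox7a1, which muscle also expresses, summed to 305 RPM in tumour control 4 and 302 RPM in healthy 1.

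Group differences were tested with limma on log2(RPM + 1) over 17013 genes, with Benjamini-Hochberg adjustment over all of them. Differences below are on this scale, which understates the change of low genes, and each comparison shares libraries with others, so that the 6 are not independent. In none of the 6 comparisons did a member pass an adjusted p of 0.05. The members rise and fall together between libraries, so counts of members below are not counts of independent results. Where a group had 0 reads, the medians over members were recomputed with the gene set to a floor of 3 reads over the group, and stayed as printed.

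In tumour control against healthy, all 46 members had lower means on the log scale, with a median difference of -2.43 beside -0.16 over all genes. Of all genes 0.047% were called, and of the members 0 of 46. At an unadjusted p under 0.05 there were 8 members, against 8.32% of all genes, and edgeR and DESeq2 on recovered reads, which called 0.00588% and 0.229% of all genes, called 0 members each. Slow troponin I, Tnni1, had the smallest adjusted p, with a difference of -2.60 ± 0.81 (SE; adjusted p = 0.249 by limma). Ckmt2 differed by -3.29 ± 1.17 (adjusted p = 0.351 by limma) and Myh7 by -3.04 ± 1.10 (adjusted p = 0.354 by limma). The result rests on tumour control 4: without it, Ckmt2 (-4.77, adjusted p = 0.00656 by limma) and Myl1 (-4.51, adjusted p = 0.0283 by limma) passed. Without tumour control 4 the median was -3.92, and without healthy 1 it was -1.45. On recovered reads the median turned to 0.70 by edgeR and 0.75 by DESeq2.

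In FGF21 AAV against tumour control, 43 of 46 members had lower and 3 higher means, and the median difference was -1.82 beside -0.05 over all genes. Of all genes 0.564% were called, and 0 of 46 members. One member, Actn2, had an unadjusted p under 0.05, with -2.36 ± 0.96 (adjusted p = 0.236 by limma), against 16% of all genes. Acta1 differed by -2.49 ± 2.03 (adjusted p = 0.584 by limma) and Myh4 by -3.06 ± 2.37 (adjusted p = 0.560 by limma). By edgeR, which called 0.047% of all genes, 0 members were called. By DESeq2, which called 2.87% of all genes, 10 members were called, all lower: Casq1, Ckmt2, Des, Tpm2, Mylpf, Acta1, Tpm1, Pygm, Ttn and Eno3. Among tumour controls, all 10 were highest in tumour control 4, and the DESeq2 fit was not repeated without it. Whether these calls rest on that library was therefore not tested. By limma, the median difference over the members without tumour control 4 was -0.38. For Sln, the tumour control mean was at least 9.45-fold higher than a floor of 3 reads over the FGF21 AAV libraries, but it rests on tumour control 4, without which it was 0.119 RPM, below the floor of 0.228 RPM.

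In efruxifermin against tumour control, 24 members had higher and 22 lower means, with a median difference of 0.02 beside -0.14 over all genes. Of all genes 0.764% were called, and 0 of 46 members. Actn2, at -2.39 ± 0.96 (adjusted p = 0.269 by limma), was the one member with an unadjusted p under 0.05, against 13.9% of all genes. Fast and slow genes differed in direction: 10 of 15 fast genes had higher means, with a median of 0.18, and 6 of 7 slow genes lower means, with a median of -1.14. This difference between the lists was not tested. Of the slow genes, Myh7, Myl2, Tnni1 and Tnnc1 had 0 reads under efruxifermin. Without tumour control 4, their tumour control means were 0, 0.0945, 0 and 0.378 RPM, so their direction rests mainly on that library. By edgeR, which called 0.27% of all genes, 0 members were called, and by DESeq2, which called 2.35%, 1 member, Myh7, was lower. Myh7 was at 0 reads under efruxifermin, and its tumour control mean, which rests on tumour control 4 alone, was at least 35.8-fold above the floor. Without tumour control 4 the median over the members was 1.36, and without efruxifermin 3 it was -1.02.

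Efruxifermin against FGF21 AAV showed higher means for 36 members and lower means for 10, with a median difference of 1.61 beside -0.07 over all genes. On recovered reads the median was 2.93 by edgeR and 3.08 by DESeq2. The share of all genes called was 0%, and 0 of 46 members were called, 0 of them even at an unadjusted p under 0.05, against 5.55% of all genes. Desmin came closest, at 2.24 ± 1.09 (adjusted p = 0.879 by limma). By edgeR, which called 0% of all genes, 0 members were called, and by DESeq2, which called 0.0823%, Myh7 alone was lower. Myh7 had 0 reads under efruxifermin and 20 under FGF21 AAV, 13 in library 4 and 7 in library 5. Myl2 and Tnnc1, with 24 and 37 reads under FGF21 AAV and 0 under efruxifermin, were not called. Of the slow genes 6 of 7 had lower means under efruxifermin, with a median of -0.92, whereas 13 of 15 fast genes had higher means, with a median of 2.16. This difference was not tested. The slow genes Myh7, Myl2, Tnni1 and Tnnc1 averaged only 1.25, 1.68, 0.623 and 3.42 RPM under FGF21 AAV, beside 0 reads under efruxifermin. Without efruxifermin 3 the median over all members was 0.62, and without FGF21 AAV 4 it was 2.46.

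In FGF21 AAV against healthy, all 46 members had lower means, with a median difference of -4.05 beside -0.22 over all genes. Of all genes 0.0118% were called, and 0 of 46 members. At an unadjusted p under 0.05 there were 42 members, against 5.34% of all genes. The members move together, so these are not 42 independent results. By edgeR and DESeq2, which called 0.00588% and 0.141% of all genes, 0 members were called. Actn2 differed by -4.32 ± 1.02, Ckmt2 by -4.69 ± 1.17 and Myh1 by -6.06 ± 1.51 (adjusted p = 0.424 each by limma). Acta1 differed by -6.46 ± 2.15 (adjusted p = 0.841 by limma). For 2 members, Actn2 and Ckmt2, all FGF21 AAV libraries lay below all healthy ones, as they did for 1.73% of all genes. Without tumour control 4 in the fit, Ckmt2 passed with an adjusted p of 0.0101 by limma. Its difference stayed at -4.69, because that library is in neither group and enters only through the spread estimated over all 4 groups. For Sln, the healthy mean was at least 117-fold higher than the floor, and 11.6-fold without healthy 1.

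In efruxifermin against healthy, all 46 members again had lower means, with a median difference of -2.47 beside -0.30 over all genes. On recovered reads the median was -1.06 by edgeR and -0.95 by DESeq2. The share of all genes called was 0%, and 0 of 46 members were called. At an unadjusted p under 0.05 there were 13 members, against 8.07% of all genes. Of the 7 slow genes 6 were among them and of the 15 fast genes 2, with medians of -3.64 and -2.52. Actn2 differed by -4.34 ± 1.02 and Myh1 by -6.37 ± 1.51 (adjusted p = 0.334 each by limma), and Mb by -4.62 ± 1.18 (adjusted p = 0.334 by limma). For Myh7, Actn2 and Ckmt2 all efruxifermin libraries lay below all healthy ones, as for 1.95% of all genes. The healthy means of Myl2, Myh7, Tnnc1 and Tnni1 were at least 386-fold, 297-fold, 243-fold and 120-fold higher than the floor of the efruxifermin libraries. These means rest on healthy 1, without which the bounds are 69.1-fold, 75.2-fold, 53.1-fold and 17.4-fold. By edgeR, which called 0% of all genes, 0 members were called, and by DESeq2, which called 0.094%, Myh7 was. Without tumour control 4 in the fit, Ckmt2 passed with an adjusted p of 0.0339 by limma. Its difference stayed at -4.54, because that library is in neither group and enters only through the spread estimated over all 4 groups.

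**Figure D5:**
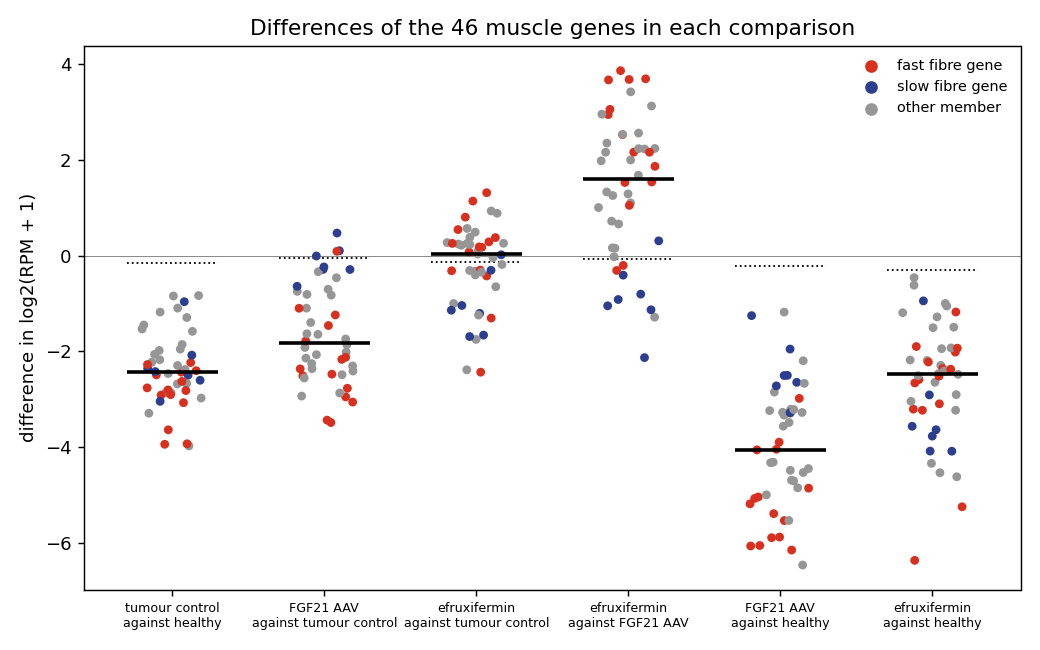
Difference of each of the 46 genes in 6 comparisons on the log2(RPM + 1) scale, coloured by fibre type, with the median of the members as a solid line and that of all genes tested as a dotted line. No member passed an adjusted p of 0.05; the members' medians are -2.43, -1.82, 0.02, 1.61, -4.05 and -2.47 from left to right.

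Medians were also taken by role. In FGF21 AAV against healthy the median was -4.06 for thick filament genes and -4.06 for thin filament genes, -4.18 for the Z-disc, -3.35 for calcium handling, -4.53 for energy supply and -2.23 for the 2 ligases. In tumour control against healthy the same medians were -2.82, -2.55, -2.48, -1.58, -2.67 and -1.19. In both comparisons the ligases had the smallest difference, and Fbxo32 alone differed by -1.18 ± 0.82 (adjusted p = 0.940 by limma) and -0.84 ± 0.82 (adjusted p = 0.882 by limma).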

How the data were processed

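FastQC, cutadapt, HISAT2, HTSeq and the mouse build GRCm39 are named, without versions, per the submitters' processing notes. The QuantSeq 3' kit, per the labels' protocols, reads the last exon. The deposited values are RPM, which the authors scaled to library size. Whole reads were recovered from the steps of the RPM values: 100% of values of up to 1000 reads lay within 0.05 of a whole number.

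Groups came from the labels. The filter was an RPM of 1 or more in 4 or more libraries, and the fit was limma 3.58.1 in R 4.3.3 (trend, log2 of RPM + 1, 4 groups in 1 fit, two-sided). Alternatives were edgeR 4.0.16 and DESeq2 1.42.0 on recovered reads, other pseudocounts, filters, scalings and array weights, a replicate block, and leaving out each library. The code was tested on simulated reads. Intervals are 95% exact binomial intervals, and floors are 3 reads. Replicate numbers were checked as a pairing and did not pair the libraries.

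The members and lists were chosen with earlier results of these data known. Values per library were given for 23 members listed by role, and for Actn2 and Ckmt2, which have the lowest mean of their role. The rule also named members called in a comparison or with the highest or lowest mean of their role, and the rest are given by their peak or range. Of each other list the pair of highest mean was named. Promoters are RefSeq windows on GRCm38.p6, not the build of the counts, and transcript ends were compared in the annotation at hand. Plots were made in python 3.11.15 (matplotlib 3.10.9).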

Additional observations from a re-analysis of the deposited data

Results flagged for a closer look

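For the 23 members listed for values per library (all those so described except Actn2 and Ckmt2), a library was singled out when its gap to the nearest of its group of 4 or 5, on the log2(RPM + 1) scale, was too large a part of the group's range. This happened in 15 of 92 groups, and chance alone gives about 1 in 20. The genes move together, so these are not independent. Tumour control 4 stood above the other tumour controls in 8 genes: Myh7 at 36.0 RPM, Myl2 at 46.6, Tnnt1 at 43.3, Tpm1 at 11868, Tpm2 at 4209, Des at 949, Sln at 10.3 and Mb at 136 RPM.

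FGF21 AAV 4 stood above its group in 4 genes, with Myh1 at 44.6 RPM, Myh2 at 29.3, Casq1 at 7.48 and Trim63 at 18.7 RPM. Efruxifermin 5 stood above its group with 33.3 RPM of Myh1 and 0.747 RPM of Sln. Efruxifermin 1 was the one efruxifermin library with reads of Tnnt1, at 0.626 RPM. These last Sln and Tnnt1 values are 2 reads each.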

How the results depend on the processing

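Across pseudocounts, filters, scalings and fits, 0 members were called except as follows. Array weights called 4 in tumour control against healthy and 1 in FGF21 AAV against healthy, and leaving out the 3 libraries of highest Acta1, a choice made after seeing the data, called 2 and 1. DESeq2 on recovered reads called 10 in FGF21 AAV against tumour control and 1 in efruxifermin against each of tumour control, FGF21 AAV and healthy. Leaving out each library in turn, done by limma only, gave 0 to 2 in tumour control against healthy, 0 to 1 in each treatment against healthy and 0 in the others. The members' median in tumour control against healthy was 0.70 by edgeR and 0.75 by DESeq2 (Acta1: 0.65 and 0.70), and in FGF21 AAV against tumour control -4.65 and -4.80. The cause was not tested. Without each library in turn, the medians ran from -3.92 to -1.45, -2.48 to -0.38, -1.02 to 1.36, 0.62 to 2.46, -5.22 to -3.18 and -3.82 to -1.53, in the order of the report. In efruxifermin against tumour control the median also fell below 0 by edgeR (-1.68) and DESeq2 (-1.63). With Casq2 left out, the slow share of efruxifermin 3 was 0. The count of all genes called moved widely, from 7 to 1018 without each library in FGF21 AAV against tumour control.

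Replicate numbers did not pair the libraries: 8 of 27 same-number pairs correlated above 0.1, as did 24 of 108 others, and 7 of 19 libraries were most like one of their own number. With a replicate block, 0 members were called in all 6 comparisons, with medians of -2.18, -1.82, 0.02, 1.61, -3.77 and -2.20.

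Scaling moved the median of all genes by up to 0.27. The mean-log2 form of the slow share is on another scale, and its values stand in the report. The efruxifermin libraries did not separate by it. With 0 slow reads in efruxifermin 4 and 5, it cannot show whether the separation by share holds. Depth limits the slow share and the ratios to Ckm in libraries with little muscle RNA.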
